A study of Mus musculus with 6 samples.

Results

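Cyclins, cyclin-dependent kinases (Cdks) and the proteins that switch the kinases on and off at mitotic entry were followed in the mouse ventricle between postnatal day 14 (P14) and postnatal day 1 (P1). The set was drawn by gene symbol: 21 cyclins, 17 kinases named Cdk with a number, and 13 named partners, namely the Cdc25 phosphatases, the kinases Wee1 and Pkmyt1, the Cks subunits, Cdc20, Fzr1, Ube2c, Foxm1, Mybl2 and Mki67. It held 51 of the 14495 genes in the count table. By their textbook roles, 26 members act in the cell cycle, 13 serve transcription and 12 do neither or are less well placed. Poly(A) mRNA was sequenced from ventricles of male C57BL/6 mice at P14 (3 libraries) and P1 (3 libraries), each library a separate pool of 3 hearts, with no treatment or engineered allele named in the labels. The tissue protocol describes ventricles with the septum kept and the atria removed, whereas the tissue field names the left ventricle.

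A cyclin binds a Cdk, turns the kinase on and steers it to its substrates. D-type cyclins with Cdk4 and Cdk6 carry a cell through G1, cyclins E and A with Cdk2 start and maintain DNA replication, and B-type cyclins with Cdk1 drive entry into mitosis, after which the anaphase-promoting complex (APC/C) destroys the cyclins. A separate branch of the family, with Cdk7, Cdk8, Cdk9, Cdk12 and Cdk13, acts on RNA polymerase II and is used by resting and dividing cells alike. Mouse cardiomyocytes leave the cell cycle within days of birth, many of them as binucleate cells, while other cells of the heart can go on dividing.

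Library totals ran from 9104230 to 15725993 reads at P14 and from 5916557 to 17353933 reads at P1. Expression values are CPM, the reads of a gene relative to the reads of its library, scaled between libraries by TMM, and are listed in the order of replicates 1 to 3. A ± after an average is the standard deviation over 3 libraries, and a ± after a log2 fold change (P14 over P1) is its standard error. A gene was called risen or fallen where the adjusted p of edgeR's quasi-likelihood test, corrected over all 14301 tested genes by the Benjamini-Hochberg method, was below 0.05. All 51 members were tested. Scaling by library totals alone put the median of all genes at −0.47 on the log2 scale, against −0.01 with TMM, and 22.5% of the calls were rises, against 49.7% with TMM. At P1, replicate 2 gave the lowest value for 15 of the 26 cell-cycle members and the highest for 10 of the 13 transcriptional ones. At P14, replicate 2 likewise gave the lowest value for 18 of the 26 and the highest for 8 of the 13. P14 replicate 1 gave the lowest value for 10 of the 13. Results are therefore also given without P1 replicate 2 where it mattered. How the counts moved without each library in turn is given in the last section.

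Most cell-cycle members fell at P14, and with TMM scaling no transcriptional member did. Of the 26 cell-cycle members 21 fell, 2 rose (Cdk6 and Pkmyt1) and 3 were not called (Ccnd2, Ccne2 and Fzr1), with a median log2 fold change of −2.46. Among all tested genes 22.0% fell and 21.8% rose, with a median of −0.01. Of the 13 transcriptional members 0 fell, 3 rose (Ccnl2, Ccnt1 and Ccnt2) and 10 were not called, with a median of 0.05; at an unadjusted p under 0.05, edgeR, DESeq2 and limma voom each found 0 falls, while library totals alone gave 2 falls (Cdk13 and Ccnc) and 0 rises. Relative to the median of all genes, the cell-cycle median was −2.45 with TMM and −2.42 with totals alone, and the transcriptional median was 0.06 in both. Without P1 replicate 2 the counts were again 21 falls and 2 rises among cell-cycle members and 0 falls and 3 rises among transcriptional members, with medians of −2.68 and 0.13.

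Every P14 library lay below every P1 library for 21 cell-cycle members and for 0 transcriptional members, where 27.5% of all tested genes showed that order. The opposite order held for 2 cell-cycle members and 3 transcriptional members (Ccnk, Ccnl2 and Ccnt1), against 27.3% of all tested genes. The low-count filter of 0.881 CPM was passed by 6 cell-cycle members (Cdc20, Ccnb1, Cdc25c, Cks2, Ccne1 and Mybl2) through the P1 libraries only. Each had every P1 library above that cutoff but not every P14 library, so a lower P14 value was built in. Such a gene is said below to have had to differ, which does not mean that a call was forced. The counts and medians over all 26 include these genes. Of the 20 that passed at both ages 15 fell and 2 rose, with a median log2 fold change of −1.77. Among these 20, 12 (60%) were at least 2-fold lower, 10 (50%) at least 4-fold and 5 (25%) at least 8-fold lower, against 14.1%, 4.45% and 1.72% of all tested genes. All 13 transcriptional members passed at both ages, and 10 of them (76.9%) stayed within 1.5-fold, against 48.5% of all tested genes. In whole tissue, fewer cells of a dividing type and less RNA in each cell cannot be told apart.

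Marker genes of several cell types moved over the same interval, in which 21.8% of all tested genes rose and 22.0% fell. Summed CPM of the cardiomyocyte list ran from 102500 to 121300 at P14 and from 64590 to 71610 at P1, and 6 of its 10 genes, all of them detected, rose. Macrophage markers summed to 273 to 314 CPM at P14 against 79.6 to 90.6 CPM at P1, with 7 of 9 risen, and erythroid markers to 2700 to 3598 CPM against 468 to 986 CPM, with 6 of 7 risen. Granulocyte markers summed to 7.97 to 11.3 CPM at P14 against 45.8 to 58.1 CPM at P1, with 4 of 5 fallen. Atrial markers summed to 198 to 351 CPM at P14 against 461 to 1027 CPM at P1, with 2 of 5 fallen. These were Myl4, with averages of 112 CPM at P14 and 493 CPM at P1, and Bmp10, with 0 counts in every P14 library. Myl7, Nr2f2 and Sln were not called, with log2 fold changes of −0.62, 0.02 and 0.53. Fibroblast markers summed to 1674 to 2395 CPM at P14 against 1606 to 2179 CPM at P1 (1 of 8 rose and 1 fell, or 2 and 2 with the replicate number as a block). Endothelial markers summed to 720 to 804 CPM against 635 to 752 CPM (3 of 8 rose), and smooth muscle and pericyte markers to 1711 to 2129 CPM against 1747 to 2648 CPM (4 of 7 rose and 2 fell). These 3 sums overlapped between the ages. With the block 7 cardiomyocyte and 5 erythroid markers rose and 3 atrial markers fell, and the counts of the other marker lists did not change. The low-count filter was passed through the P1 libraries only by 2 granulocyte markers and 1 atrial marker, and through the P14 libraries only by 1 macrophage marker. The part of these shifts in the results below was not tested.

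**Figure D1:**
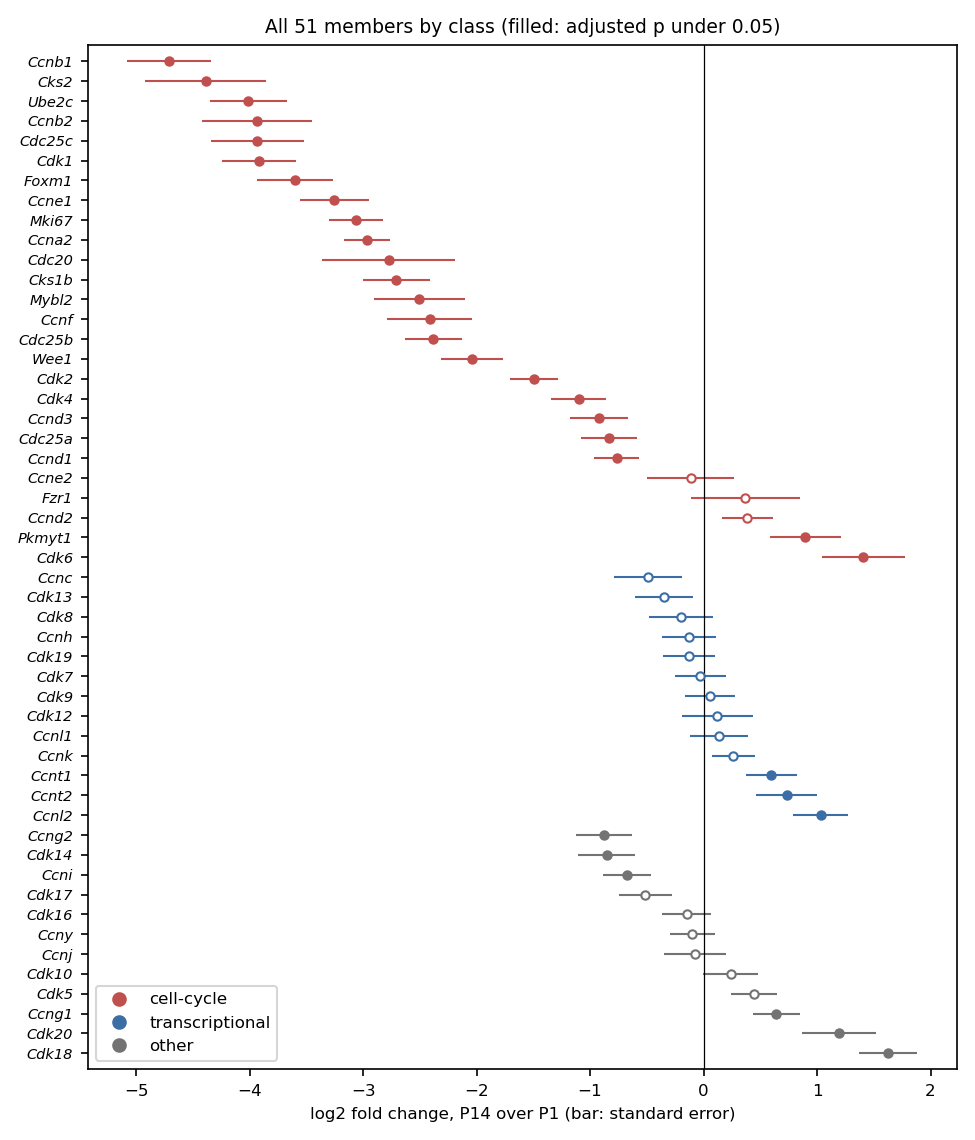
Log2 fold change, P14 over P1, of all 51 members with its standard error, grouped by class; filled points have an adjusted p under 0.05. Cell-cycle members run from −4.71 (Ccnb1) to 1.41 (Cdk6), and transcriptional members from −0.49 (Ccnc) to 1.03 (Ccnl2); with library totals alone the 3 filled transcriptional points were no longer called, and Cdk13 and Ccnc were called lower.

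The group of Cdk1, the B-type cyclins and cyclin F had the lowest median of the functional groups, −3.93 on the log2 scale. All 4 genes fell, against 22.0% of all tested genes. Among them Ccnb1 passed the low-count filter through the P1 libraries only and so had to differ. Cdk1, the kinase whose activity defines mitosis (ENSMUSG00000019942; GRCm38 chromosome 10, 69335146 to 69352938, minus strand), had 9.71, 3.45 and 4.51 CPM in the P14 libraries, against 95.1, 87.0 and 95.1 CPM in the P1 libraries. It fell 15.1-fold (log2 fold change −3.92 ± 0.32, edgeR adjusted p = 1.45e-06), and its highest P14 library lay far below its lowest P1 library. Ccnb1 (chromosome 13, 100778650 to 100786570, minus strand) encodes cyclin B1, the main partner of Cdk1, and had 0.493, 0.266 and 0.644 CPM at P14, against 10.3, 13.4 and 14.5 CPM at P1. That is 14 reads in all P14 libraries and 538 in all P1 libraries, a P1 to P14 ratio of 25.4 with an exact 95% interval of 14.98 to 46.7 that covers counting error only. The fitted log2 fold change of Ccnb1, −4.71 ± 0.37, was the lowest of the 51 members. Only 73.6% of the 36-base windows in its exons were unique to it, because other sequences, the pseudogene Ccnb1-ps among them, share the rest, so reads of those may be counted with it or lost.

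Ccnb2, which encodes the Golgi-associated cyclin B2, had 7.32, 1.46 and 2.58 CPM at P14, against 69.6, 45.9 and 71.1 CPM at P1 (log2 fold change −3.93 ± 0.49, edgeR adjusted p = 0.000204). Per kilobase of exon it was the most abundant B-type cyclin at either age, at 2.47 CPM per kb at P14 and 40.6 CPM per kb at P1, against 0.111 and 3.02 CPM per kb for Ccnb1. Ccnf encodes cyclin F, an F-box protein that marks proteins for ubiquitination and activates no Cdk. It had 1.76, 1.59 and 1.93 CPM at P14, against 8.47, 5.66 and 14.99 CPM at P1, and fell 5.33-fold. None of these 4 genes had a P14 library within its P1 range, and Ccnb1 among them had to differ. Of all tested genes 27.5% had every P14 library below every P1 library.

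**Figure D2:**
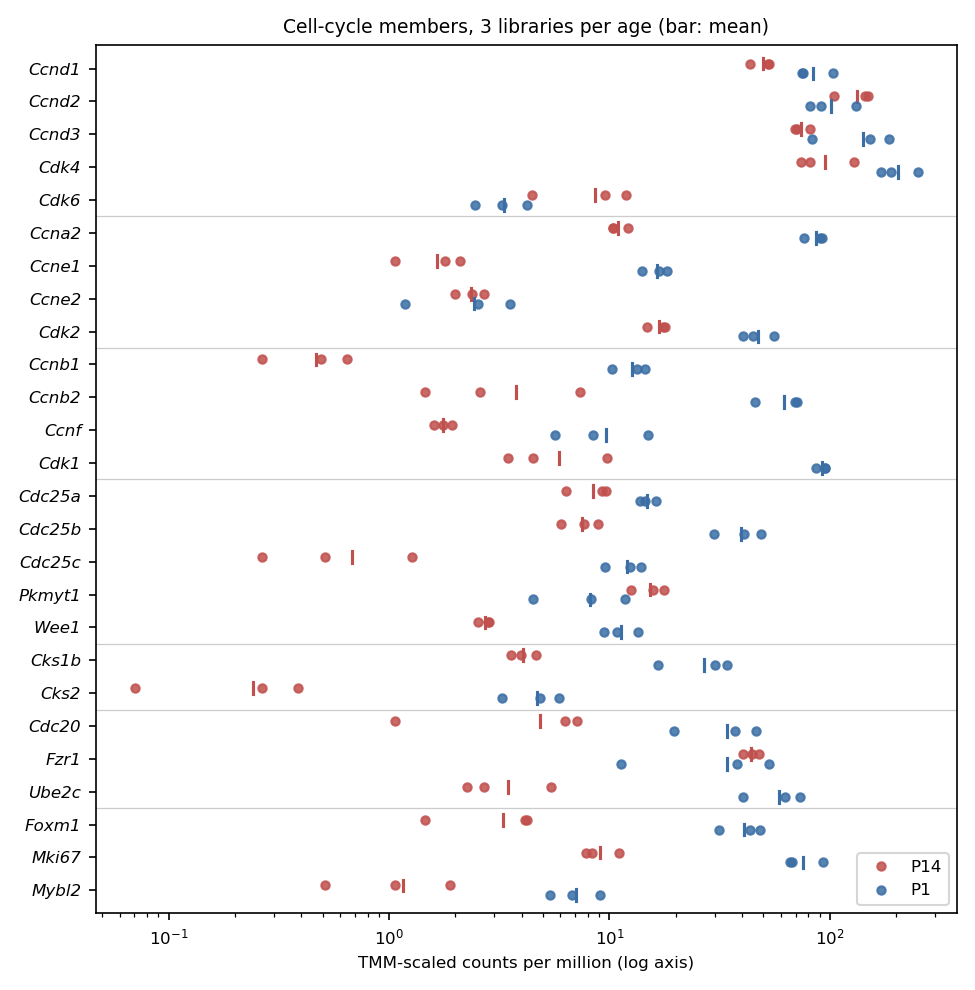
TMM-scaled CPM on a log axis for the 26 cell-cycle members in each P14 library (red) and each P1 library (blue), with the mean of each age as a bar; grey lines part the functional groups. The P14 points of 21 members lie wholly left of the P1 points, those of Cdk6 and Pkmyt1 lie wholly right, and Ccnd2, Ccne2 and Fzr1 overlap. Among all tested genes 27.5% stand wholly lower at P14 and 27.3% wholly higher. Of the 21, Cdc20, Ccnb1, Cdc25c, Cks2, Ccne1 and Mybl2 passed the low-count filter through the P1 libraries only.

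The promoters of several of these genes carry a known pair of elements. The cell-cycle homology region (CHR), written TTTGAA, is bound by the Lin54 subunit of the MuvB core, which joins the repressive DREAM complex in resting cells and works with B-Myb and Foxm1 in dividing cells. The CCAAT box, searched as CCAAT, is bound by NF-Y. RefSeq promoter windows (GRCm38.p6, 250 bases before to 50 after a start) were found for 38 of the 51 members, and both strands were searched. A CHR match was present in 7 of 19 windows of 18 cell-cycle members (36.8%) and in 0 of 11 windows of as many transcriptional members, against 17.9% of all 32851 windows. A CCAAT match was present in 14 of 19 (73.7%) and 5 of 11 (45.5%), against 37.4% of all windows. Both were present in 7 of 19 (36.8%) and 0 of 11, against 6.95% of all. The E2F-type letters TTTCGCGC, TTTGGCGC, TTTCCCGC and TTTGCCGC were found in 3 of 19 (15.8%) and 0 of 11, against 2.26% of all. None of these motifs contains another. The 7 genes with a CHR match, Ccnb2, Ccnf, Cdc20, Cdk1, Cks1b, Mki67 and Ube2c, all fell, with log2 fold changes from −4.01 to −2.41. Of the 11 cell-cycle genes with a window and no CHR match 9 fell and 1 rose, from −4.71 to 1.41, so the largest fall (Ccnb1) was among those without one. Cdc20, with a match, and Ccnb1, Ccne1, Cks2 and Mybl2, without one, passed the low-count filter through the P1 libraries only and so had to differ. The falls of these genes therefore say nothing of the motif. CHR matches were also found in 2 members of neither class, Ccni and Cdk16. The stretches of 5 genes are shown for the spacing of CHR and CCAAT matches in genes that fell, and that of Ccni as a CHR match in a gene that fell by far less. They are written 5′ to 3′ on the gene's strand with the CHR (TTTGAA or its complement TTCAAA) and the CCAAT box (CCAAT or ATTGG) in capitals. The stretches of Cdk1 (chr10:69352917-69353125), Ccnb2 (chr9:70421540-70421726), Ccnf (chr17:24251413-24251561), Cdc20 (chr4:118437342-118437401), Mki67 (chr7:135716467-135716572) and Ccni (chr5:93206577-93206637) are all from minus-strand genes in GRCm38.p6.
Cdk1: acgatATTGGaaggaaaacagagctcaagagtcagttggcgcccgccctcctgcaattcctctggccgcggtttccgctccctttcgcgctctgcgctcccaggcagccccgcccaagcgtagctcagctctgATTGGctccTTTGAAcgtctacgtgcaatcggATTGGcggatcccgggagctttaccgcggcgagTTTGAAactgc
Ccnb2: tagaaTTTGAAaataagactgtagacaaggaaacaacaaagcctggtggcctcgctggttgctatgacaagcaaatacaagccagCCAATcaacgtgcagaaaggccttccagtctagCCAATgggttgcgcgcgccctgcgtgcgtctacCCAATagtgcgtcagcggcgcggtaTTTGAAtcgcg
Ccnf: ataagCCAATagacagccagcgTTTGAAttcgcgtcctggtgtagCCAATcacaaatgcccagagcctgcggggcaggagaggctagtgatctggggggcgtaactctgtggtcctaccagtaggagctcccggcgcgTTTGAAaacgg
Cdc20: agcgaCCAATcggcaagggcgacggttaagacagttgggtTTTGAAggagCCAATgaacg
Mki67: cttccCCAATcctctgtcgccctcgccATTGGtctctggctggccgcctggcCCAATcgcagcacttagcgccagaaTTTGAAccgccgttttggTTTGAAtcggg
Ccni: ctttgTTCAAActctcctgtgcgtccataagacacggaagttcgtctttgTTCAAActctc

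In Cdk1 a CHR match begins 15 bases before the start and another 71 bases before it, with CCAAT matches 48 and 80 bases before. In Cdc20 the CHR match begins 18 bases before the start and a CCAAT match 53 bases before. In Ccnb2 the CHR match nearest the start begins 4 bases after it, and CCAAT matches begin 21, 54 and 87 bases before it. A match of letters is a description of the window and does not show that a factor binds there.

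**Figure D3:**
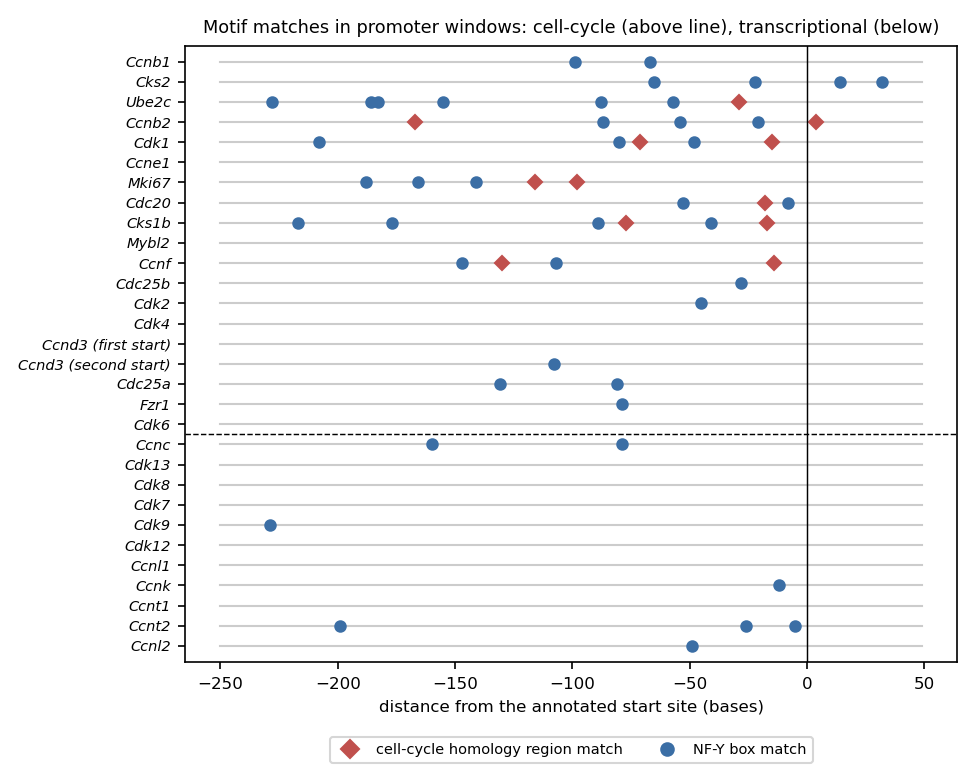
Positions of cell-cycle homology region matches (red diamonds) and NF-Y box matches (blue circles) in the promoter windows of cell-cycle members (above the dashed line) and transcriptional members (below), ordered by fold change within each class, in bases from the annotated start. Red diamonds appear in 7 cell-cycle windows and in 0 transcriptional windows.

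The phosphatases and kinases that set Cdk1 and Cdk2 activity did not move together. Cdc25 phosphatases remove inhibitory phosphates from these kinases, and all 3 fell. Cdc25b had 8.87, 7.70 and 6.05 CPM at P14, against 40.9, 29.9 and 48.5 CPM at P1 (log2 fold change −2.38 ± 0.25). Cdc25c had 1.27, 0.266 and 0.515 CPM at P14, against 9.58, 12.4 and 14.0 CPM at P1, or 24 reads in all at P14 against 502 at P1. Its P1 to P14 ratio was 13.8, with a counting interval of 9.17 to 21.8. Of the Cdc25 genes only Cdc25c passed the low-count filter through the P1 libraries alone, so it had to differ. Cdc25a, the form that also acts at the start of S phase, fell least, with 6.33, 9.29 and 9.66 CPM at P14 against 13.8, 16.3 and 14.5 CPM at P1 (log2 fold change −0.83 ± 0.25, edgeR adjusted p = 0.0135). Without P14 replicate 1 its adjusted p was 0.0558. Per kilobase of exon, Cdc25a accounted for 33.1% ± 9.20 of the 3 phosphatases at P14 and 12.7% ± 3.10 at P1, with no overlap between the ages, and Cdc25c for 4.24% ± 2.99 and 16.5% ± 3.36.

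Wee1 and Pkmyt1, the kinases that place those inhibitory phosphates, moved in opposite directions. Wee1, a nuclear kinase, had 2.81, 2.52 and 2.83 CPM at P14, against 9.48, 13.5 and 10.8 CPM at P1, and fell 4.11-fold (edgeR adjusted p = 4.75e-05). Pkmyt1, which encodes the membrane-bound Myt1 (chromosome 17, 23726336 to 23736735, plus strand), had 12.5, 15.8 and 17.6 CPM at P14, against 11.8, 4.49 and 8.25 CPM at P1. It rose 1.86-fold (log2 fold change 0.90 ± 0.32, edgeR adjusted p = 0.0329). Per kilobase, every P14 library had more Pkmyt1 than Wee1 (averages of 4.21 and 0.797 CPM per kb), while P1 averaged 2.24 CPM per kb for Pkmyt1 and 3.29 for Wee1, with Pkmyt1 the higher in P1 replicate 1. The rise of Pkmyt1 was not stable: its adjusted p was 0.0897 without P14 replicate 2, 0.114 without P14 replicate 3, 0.0603 without P1 replicate 2, 0.0789 without P1 replicate 3 and 0.240 with library totals alone. Its exons overlap Paqr4 on the opposite strand, which rose by 1.37 ± 0.22 on the log2 scale (45.4 CPM at P14, 17.7 CPM at P1). Use of strand in counting is not stated in the labels, so reads in the overlap cannot be told apart, and the part of Paqr4 in the rise was not tested.

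The Cks proteins are small subunits that dock Cdks onto substrates already phosphorylated. Cks1b had 4.64, 3.58 and 3.99 CPM at P14, against 34.1, 16.7 and 30.1 CPM at P1 (log2 fold change −2.71 ± 0.30). Cks2 had 6 reads in all P14 libraries (0.0704, 0.266 and 0.386 CPM), against 196 reads at P1 (4.86, 3.27 and 5.89 CPM), a P1 to P14 ratio of 21.6 with a counting interval of 9.73 to 59.5. Both fell, and at P14 the depth of these libraries gives little more than an upper bound for Cks2. Having passed the low-count filter through the P1 libraries only, Cks2 had to differ. Only 68.8% of its 36-base windows were unique, the lowest share of the members.

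The APC/C is switched on by Cdc20 in mitosis and by Cdh1, the product of Fzr1, from late mitosis through G1 and in cells that have stopped dividing. Cdc20 had 7.11, 1.06 and 6.31 CPM at P14, against 37.0, 19.6 and 46.3 CPM at P1, and fell 6.83-fold (edgeR adjusted p = 0.00676, and 0.0521 without P1 replicate 1). It passed the low-count filter through the P1 libraries only and so had to differ. Fzr1 had 40.4, 47.7 and 44.3 CPM at P14, against 53.1, 11.3 and 38.0 CPM at P1, and was not called (log2 fold change 0.37 ± 0.48, edgeR adjusted p = 0.570). Its 3 P14 libraries were close together, and the spread lay in P1 replicate 2, without which the log2 fold change was −0.06. Per kilobase Fzr1 exceeded Cdc20 in every P14 library (averages of 9.83 and 2.58 CPM per kb), and Cdc20 exceeded Fzr1 in every P1 library (18.4 for Cdc20 and 7.61 for Fzr1). Ube2c, the ubiquitin-conjugating enzyme of the APC/C, had 5.42, 2.26 and 2.70 CPM at P14, against 62.8, 40.3 and 72.9 CPM at P1, a fall of 16.1-fold. Of its 36-base windows 78.1% were unique, and most of the others lie in Tnnc2 on the opposite strand. Of 13 core subunits of the complex 4 fell, 0 rose and 9 were not called, with a median log2 fold change of −0.22; with the replicate number as a block 5 fell and 1 rose. Of all tested genes 22.0% fell and 21.8% rose. Cdc23 had the largest fall of the core, with 28.1 ± 6.68 CPM at P14 and 75.5 ± 8.27 CPM at P1, and Anapc10 fell by 1.23 on the log2 scale.

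Foxm1 and Mybl2 encode transcription factors of the genes used in G2 and mitosis, and both fell. Foxm1 had 4.15, 1.46 and 4.25 CPM at P14, against 43.5, 31.3 and 48.2 CPM at P1 (log2 fold change −3.60 ± 0.33). Mybl2 (B-Myb) had 1.90, 1.06 and 0.515 CPM at P14, against 9.11, 5.36 and 6.74 CPM at P1 (log2 fold change −2.51 ± 0.40). Mybl2, unlike Foxm1, passed the low-count filter through the P1 libraries only and so had to differ. Mki67, the proliferation marker Ki-67 that coats mitotic chromosomes, had 8.30, 7.83 and 11.1 CPM at P14, against 65.9, 93.2 and 67.7 CPM at P1 (log2 fold change −3.06 ± 0.24). Among 11 genes for the other DREAM and MuvB subunits 5 fell, 2 rose and 4 were not called, with a median of −0.46, where 22.0% of all tested genes fell and 21.8% rose; of the 9 that passed the low-count filter at both ages 4 fell and 2 rose. The pocket protein gene Rbl1 fell to 1.84 ± 0.44 CPM at P14, against 8.60 ± 1.99 CPM at P1, and Lin54, whose product binds the CHR, fell to 3.28 ± 0.31 CPM at P14, against 9.37 ± 2.16 CPM at P1. Lin37 went against them, with 18.9 ± 1.34 CPM at P14 and 10.6 ± 4.14 CPM at P1 (log2 fold change 0.87 ± 0.28, edgeR adjusted p = 0.0215). All 12 mitotic kinases in the table fell, but 11 of them (all but Bub1b) passed the low-count filter through the P1 libraries only and so had to differ. Nek2, of the centrosome cycle, averaged 1.24 ± 0.90 CPM at P14 and 26.6 ± 4.55 CPM at P1, and Bub1, of the spindle checkpoint, 0.741 ± 0.151 CPM at P14 and 14.98 ± 2.63 CPM at P1.

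Ccna2 and Cdk2, of S phase, both fell. Ccna2 (chromosome 3, 36564865 to 36572150, minus strand) encodes cyclin A2, which serves Cdk2 in S phase and Cdk1 before mitosis. It had 12.2, 10.4 and 10.4 CPM at P14, against 76.1, 90.2 and 92.6 CPM at P1, and fell 7.81-fold (log2 fold change −2.97 ± 0.21, edgeR adjusted p = 1.52e-07, the smallest of the 51). Its opposite-strand neighbour Exosc9, whose exons overlap it, fell by 1.13 on the log2 scale. Cdk2 had 17.6, 14.7 and 17.9 CPM at P14, against 44.7, 56.0 and 40.6 CPM at P1, a smaller fall of 2.81-fold.

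The E-type cyclins, which start replication with Cdk2, parted from each other. Ccne1 had 2.11, 1.06 and 1.80 CPM at P14, against 18.2, 14.1 and 16.8 CPM at P1, and fell 9.53-fold (edgeR adjusted p = 1.72e-06). Ccne1 passed the low-count filter through the P1 libraries only and so had to differ, whereas Ccne2 passed at both ages. Ccne2 had 2.39, 1.99 and 2.70 CPM at P14, against 2.54, 3.56 and 1.18 CPM at P1, and was not called (log2 fold change −0.11 ± 0.39, edgeR adjusted p = 0.834). The P14 values of Ccne2 all lay inside its P1 range. Per kilobase, Ccne1 and Ccne2 averaged 0.623 and 0.676 CPM per kb at P14 and 6.16 and 0.694 CPM per kb at P1. Of the summed per-kilobase level of cyclins A2, B1, B2, E1 and E2, Ccne2 made 11.1% ± 3.25 at P14 and 1.02% ± 0.61 at P1.

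The G1 group, with a median log2 fold change of −0.77, changed least of the cell-cycle groups and included a riser. Cdk4 had 129, 73.7 and 81.7 CPM at P14, against 251, 171 and 189.9 CPM at P1, and fell 2.15-fold (edgeR adjusted p = 0.00221). Cdk6, its close relative (chromosome 5, 3341485 to 3531008, plus strand), had 4.43, 11.9 and 9.53 CPM at P14, against 2.45, 3.27 and 4.21 CPM at P1, and rose 2.65-fold (log2 fold change 1.41 ± 0.37, edgeR adjusted p = 0.00677). The lowest P14 value of Cdk6, in replicate 1, lay just above the highest P1 value. Cdk6 nevertheless remained the minor kinase: per kilobase it made 2.35% ± 1.44 of Cdk4 and Cdk6 together at P14 and 0.394% ± 0.149 at P1.

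Of the D-type cyclins, Ccnd1 had 52.9, 43.4 and 52.4 CPM at P14, against 103, 75.4 and 74.4 CPM at P1, and fell 1.70-fold (edgeR adjusted p = 0.00690). Ccnd3 had 81.2, 69.7 and 71.3 CPM at P14, against 186, 83.4 and 153 CPM at P1, and fell 1.90-fold (edgeR adjusted p = 0.00995). Ccnd2 (chromosome 6, 127125162 to 127152193, minus strand) had 104, 149 and 145 CPM at P14, against 91.2, 132 and 81.5 CPM at P1, and was not called (log2 fold change 0.38 ± 0.23, edgeR adjusted p = 0.185). Its overlap between ages came from P1 replicate 2. Without that library Ccnd2 was called higher at P14 (log2 fold change 0.61, edgeR adjusted p = 0.0129), whereas with library totals alone its log2 fold change was −0.11. Per kilobase, Ccnd2 made 42.5% ± 6.62 of the D-type total at P14 and 24.8% ± 9.24 at P1, Ccnd1 31.9% ± 3.81 and 39.9% ± 1.96, and Ccnd3 25.6% ± 3.198 and 35.3% ± 9.73. These shares are free of library scaling, and no test of them was made. Exons of Ccnd1 and Cdk4 overlap LTO1 and Tspan31 on the opposite strand, and 77.9% and 81.6% of their 36-base windows were unique; neither neighbour was called.

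**Figure D4:**
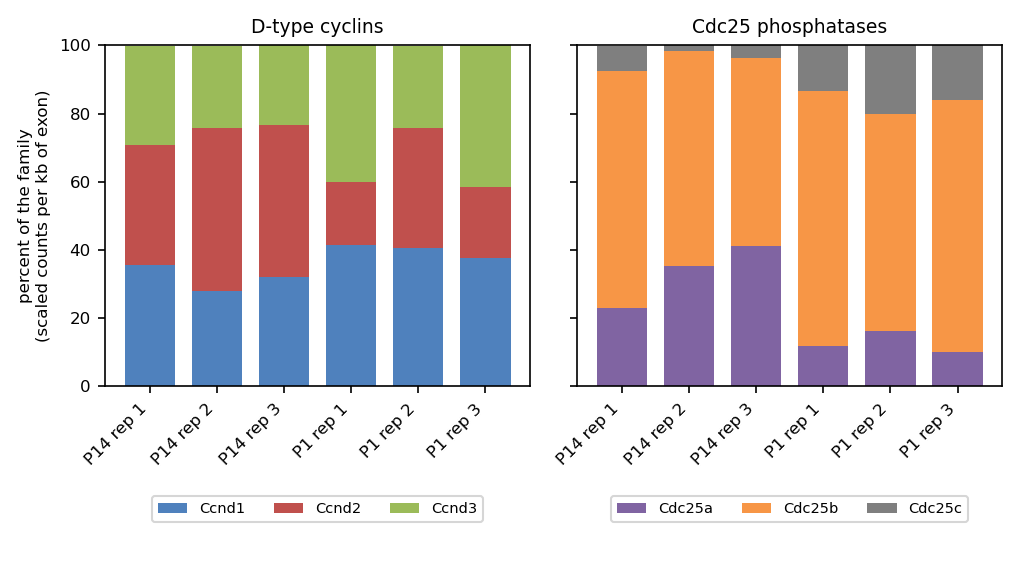
Share of each D-type cyclin (left) and each Cdc25 phosphatase (right) in the family's summed TMM-scaled counts per kilobase of exon, for the 3 P14 and the 3 P1 libraries. Ccnd2 takes 35.1% to 48.0% of its family at P14 and 18.4% to 35.4% at P1, and Cdc25a takes 23.0% to 41.1% at P14 and 10.2% to 16.2% at P1.

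Inhibitor genes of the cell-cycle kinases were measured beside them, and 4 of 6 fell, 1 rose and 1 was not called, where 22.0% of all tested genes fell and 21.8% rose. Cdkn3, which encodes a phosphatase that acts on Cdks, averaged 2.54 ± 0.79 CPM at P14 and 28.8 ± 3.999 CPM at P1. Cdkn2c, an inhibitor of Cdk4 and Cdk6, averaged 5.899 ± 0.858 CPM at P14 and 16.8 ± 3.52 CPM at P1. Cdkn1a, which encodes the broad Cdk inhibitor p21, was the riser, with 193.5, 95.7 and 169.6 CPM at P14, against 83.9, 58.6 and 86.7 CPM at P1 (log2 fold change 1.00 ± 0.26, edgeR adjusted p = 0.00648). All 3 of its P14 libraries lay above all P1 libraries.

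Among the transcriptional members the 3 rises were in cyclins, and none of the 6 kinases drawn by the symbol rule was called, with log2 fold changes from −0.35 (Cdk13) to 0.12 (Cdk12), although Cdk13 was called lower with library totals alone (−0.83). P-TEFb, made of Cdk9 with cyclin T1 or T2, releases paused RNA polymerase II. Ccnt1 had 22.5, 29.9 and 31.2 CPM at P14, against 15.3, 21.8 and 18.02 CPM at P1 (log2 fold change 0.60 ± 0.23, edgeR adjusted p = 0.0439). Ccnt2 had 34.5, 64.9 and 48.4 CPM at P14, against 25.1, 40.2 and 23.1 CPM at P1 (log2 fold change 0.73 ± 0.27, edgeR adjusted p = 0.0393). The ages of Ccnt2 overlapped, and both calls sat near the threshold. Leaving out P14 replicate 2, P14 replicate 3, P1 replicate 1 or P1 replicate 3 ended each of them, with adjusted p from 0.0987 to 0.162 for Ccnt1 and from 0.0859 to 0.217 for Ccnt2. Voom gave 0.0505 and 0.0585, upper quartile scaling 0.0743 and 0.0630, a filter of over 5 CPM in 3 libraries 0.0512 and 0.0507, and library totals alone 0.736 and 0.481. Cdk9 itself averaged 21.5 ± 1.84 CPM at P14 and 20.6 ± 4.02 CPM at P1 (log2 fold change 0.05 ± 0.22).

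Cyclins L1 and L2 partner Cdk11 and act in splicing. The Cdk11 gene Cdk11b, which the symbol rule left out and which was singled out after its values were seen, had 73.0, 85.6 and 73.7 CPM at P14, against 44.4, 59.7 and 39.6 CPM at P1, and rose (log2 fold change 0.69 ± 0.20, edgeR adjusted p = 0.0137), with no overlap between ages. Its adjusted p was 0.0707 without P14 replicate 2, 0.0636 without P1 replicate 3 and 0.516 with library totals alone. Cyclin K partners Cdk12 and Cdk13, which phosphorylate elongating polymerase. Ccnl2 (chromosome 4, 155812489 to 155824543, plus strand) had 88.5, 148 and 106 CPM at P14, against 55.7, 70.2 and 40.8 CPM at P1. It rose 2.05-fold (log2 fold change 1.03 ± 0.24, edgeR adjusted p = 0.00359), with no overlap between ages, and the call held without each library in turn but not with library totals alone (adjusted p = 0.0802). Its relative Ccnl1 had a log2 fold change of 0.14 ± 0.26 and was not called. Ccnk had 0.26 ± 0.19, also not called, although its P14 libraries (36.0 to 38.6 CPM) all lay above its P1 libraries (29.7 to 33.8 CPM). Cdk13 ran from 15.9 to 22.7 CPM at P14 and from 19.3 to 34.3 CPM at P1, with overlapping ages, and Cdk12 had a log2 fold change of 0.12 ± 0.31.

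Cyclin C with Cdk8 or Cdk19 forms the kinase module of Mediator. Ccnc had 6.90, 4.38 and 5.02 CPM at P14, against 7.31, 10.1 and 5.39 CPM at P1, and was not called (log2 fold change −0.49 ± 0.30, edgeR adjusted p = 0.202). Cdk19 made 86.5% ± 2.40 of the Cdk8 and Cdk19 total per kilobase at P14 and 85.6% ± 4.001 at P1. Cdk7 and cyclin H form the kinase of TFIIH and also phosphorylate the other Cdks on their activating loop. Ccnh had 17.0, 13.1 and 14.0 CPM at P14, against 13.6, 20.6 and 14.1 CPM at P1 (log2 fold change −0.13 ± 0.24), and Cdk7 had a log2 fold change of −0.03 ± 0.22. Counting this pair with the cell-cycle members left the other counts as they were, at 21 cell-cycle falls and 3 transcriptional rises.

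Of 22 genes whose products work with these kinases 6 rose, Cdk11b again among them, 3 fell and 13 were not called. Their median was 0.37, and with the replicate number as a block 7 rose and 4 fell. Of all tested genes 21.8% rose and 22.0% fell, so these counts say nothing particular of the list. Ell2, an elongation factor of the complexes that carry P-TEFb, averaged 6.20 ± 1.85 CPM at P14 and 2.09 ± 0.21 CPM at P1. Mepce, whose product caps the 7SK RNA that holds P-TEFb inactive, averaged 47.0 ± 5.56 CPM at P14 and 20.5 ± 6.16 CPM at P1. Gtf2h1, a TFIIH subunit, moved the other way, with 14.9 ± 3.82 CPM at P14 and 28.0 ± 5.95 CPM at P1. The other falls were also TFIIH genes, Ercc3 (log2 fold change −0.76 ± 0.21, edgeR adjusted p = 0.0105) and Mnat1 (−0.63 ± 0.24, 0.0469). Mnat1, whose product joins Cdk7 and cyclin H, had overlapping ages. Ercc2, Gtf2h2, Gtf2h3 and Gtf2h4, of TFIIH as well, were not called. The risers include partners that activate the kinase and a partner that restrains it.

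Of the remaining 12 members 3 fell, 3 rose and 6 were not called, shares near those of all tested genes (22.0% fell and 21.8% rose). Cyclin G1 is a target of p53, and its gene Ccng1 had 291, 279 and 291 CPM at P14, against 147, 228 and 176 CPM at P1 (log2 fold change 0.64 ± 0.21, edgeR adjusted p = 0.0206). Ccng2, its relative that is linked to cell-cycle arrest, went the opposite way, with 6.19, 7.57 and 9.66 CPM at P14, against 14.3, 13.8 and 14.7 CPM at P1 (log2 fold change −0.88 ± 0.24). Neither gene had overlapping ages. Ccni, for the atypical cyclin I, had 80.3, 49.8 and 76.2 CPM at P14, against 108, 104 and 119 CPM at P1 (log2 fold change −0.68 ± 0.21, edgeR adjusted p = 0.0182). The calls of Ccng1 and Ccni were sensitive to single libraries. Ccng1 had an adjusted p of 0.0577 without P14 replicate 2, 0.0610 without P14 replicate 3, 0.111 without P1 replicate 1 and 0.0610 without P1 replicate 3, and Ccni 0.120 without P14 replicate 2 and 0.0662 without P1 replicate 3. With library totals alone Ccng1 had 0.586.

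Among the less studied kinases, Cdk18, of the PCTAIRE group, had 14.2, 18.2 and 13.9 CPM at P14, against 5.88, 4.08 and 4.88 CPM at P1, and rose 3.09-fold (log2 fold change 1.63 ± 0.26, edgeR adjusted p = 0.000166), the largest rise of the 51 members. Cdk20, a kinase linked to cilia, had 4.79, 6.11 and 4.76 CPM at P14, against 2.54, 1.57 and 2.86 CPM at P1, and rose 2.29-fold (edgeR adjusted p = 0.00831, and 0.0961 with library totals alone). Cdk14, a partner of the membrane-bound cyclin Y in Wnt signalling, had 11.1, 10.9 and 9.14 CPM at P14, against 15.6, 24.8 and 15.8 CPM at P1, and fell 1.81-fold (edgeR adjusted p = 0.0123, and 0.0622 without P14 replicate 3). All 3 had separate ages. The 6 members not called, Ccnj, Ccny, Cdk5, Cdk10, Cdk16 and Cdk17, had log2 fold changes from −0.51 (Cdk17) to 0.45 (Cdk5). Cdk17 and Cdk5 had no overlap between ages, and with library totals alone Cdk17 was called lower (log2 fold change −0.99, edgeR adjusted p = 0.00259). Cdk16, another PCTAIRE kinase, held 51.6 CPM per kb at P14 and 57.3 CPM per kb at P1.

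**Figure D5:**
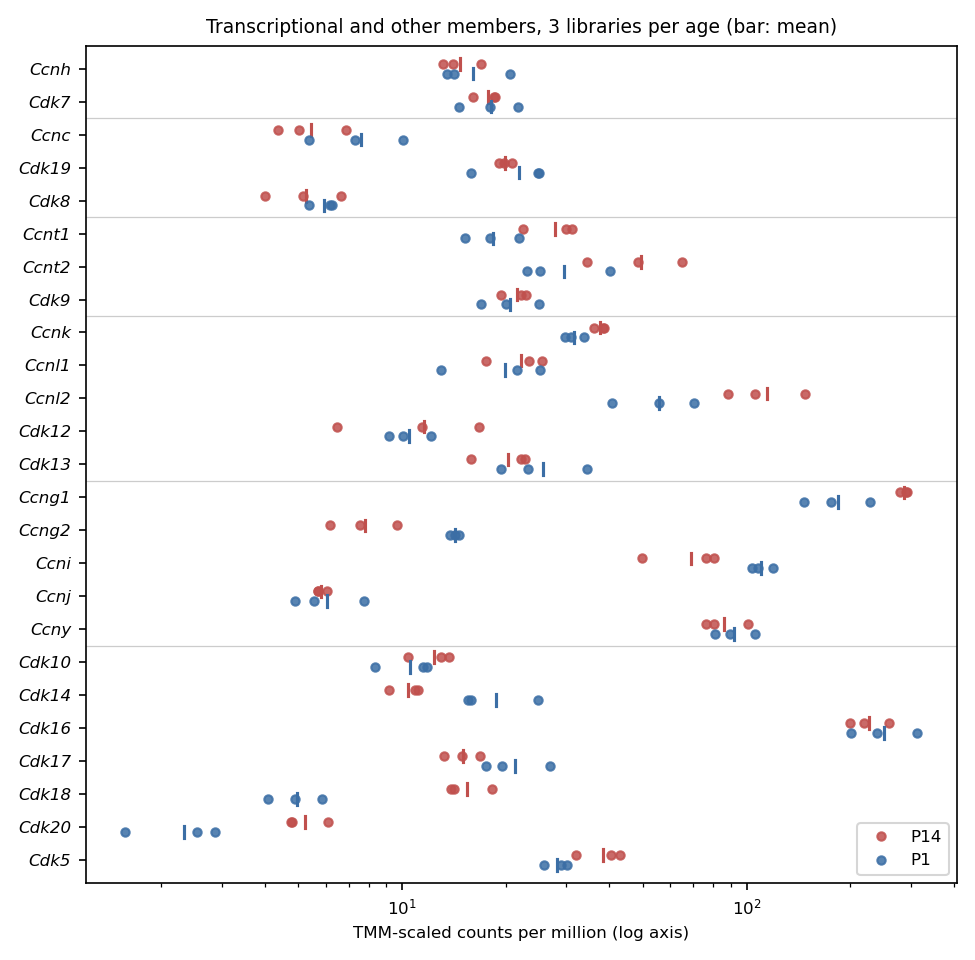
TMM-scaled CPM on a log axis for the 13 transcriptional and 12 other members in each P14 library (red) and each P1 library (blue), with the mean of each age as a bar; grey lines part the functional groups. The ages overlap for 10 of the 13 transcriptional members, and Ccnk, Ccnl2 and Ccnt1 stand wholly higher at P14. Of the other members Ccng1, Cdk5, Cdk18 and Cdk20 stand wholly higher at P14 and Ccng2, Ccni, Cdk14 and Cdk17 wholly lower. Among all tested genes 27.3% stand wholly higher and 27.5% wholly lower.

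The order of the members by level changed with the cell-cycle genes. Per kilobase of exon, Ccng1 had the highest level of the 51 members at P14 (81.7 CPM per kb), followed by Cdk16 (51.6) and Cdk4 (29.2). At P1 Cdk4 was first (62.7 CPM per kb), followed by Cdk16 (57.3), Ccng1 (52.3) and Ccnb2 (40.6). At P1 the values of the first 3 overlapped between libraries, so their order there is not resolved, while at P14 every Ccng1 value lay above every Cdk16 value.

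Besides the genes named above, Cdc20 (79.2%), Mybl2 (79.4%), Cdk10 (80.0%) and Ccni (80.8%) had the lowest shares of unique 36-base windows, so reads of similar sequences may be mixed into them or lost from them. Exons of 4 more members overlap a neighbour that was called, and since the use of strand in counting is not stated, reads in those overlaps cannot be told apart. On the opposite strand these neighbours were Mfsd12 at Fzr1 (log2 fold change 0.67 ± 0.26, edgeR adjusted p = 0.0474), Spata2l at Cdk10 (1.79 ± 0.36, 0.00124) and Spef1 at Cdc25b (1.23 ± 0.24, 0.000907). On the same strand Tex52 at Foxm1 fell by 2.60 ± 0.67 (0.00632).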

How the data were processed

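Poly(A) mRNA of mouse ventricles was measured in 3 libraries at P14 and 3 at P1, each a separate pool of 3 hearts per the labels' protocols, so p-values cover the spread between pools. The authors deposited whole-number read counts per gene for the 6 libraries; the smallest total of a gene over them was 60, so rarer transcripts are not analysed here. Per the submitters' processing notes, bedtools and edgeR 3.2.4 were among the tools and mm10 (GRCm38) was the build. No aligner, counter, annotation or strand setting is given in the sources used here.

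Library totals were 5916557 to 17353933 reads, and genes near 1 CPM rest on few reads. The tools here were edgeR 4.0.16, DESeq2 1.42.0 and limma 3.58.1 under R 4.3.3, and the scripts were tested on simulated data. The filterByExpr filter (minimum count 10) left 14301 genes and removed 194. Counts were scaled by TMM, and the ages were compared by the robust quasi-likelihood F-test of edgeR on age alone, two-sided, with Benjamini-Hochberg adjustment over all tested genes. The standard error of each log2 fold change comes from its coefficient and F value. Exact binomial counting intervals were made for genes with few reads. Positions, exon lengths, overlaps and unique 36-base windows (36 is the read length) came from GENCODE M21 (GRCm38), which held all 51 members.

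The members, their roles and the lists of other genes were chosen with earlier results of these data known. Every member is named; each cell-cycle member is given in every library, and of the other classes each called member and the largest change of each role. Of each pathway list up to 2 called genes with the largest change and at least 5 CPM at either age are named, with at most 1 against the list's direction. Cdk11b, Bub1b and the further TFIIH genes are named outside that rule. Alternatives were 3 other scalings, no filter and a stricter one, DESeq2, voom, a replicate block, an adjusted p under 0.01, another class for Cdk7 and Ccnh, and leaving out each library. Replicate numbers 1 to 3 recur at both ages, and the labels do not tie them together. Same-numbered libraries deviated from their age means with correlations of 0.295, 0.112 and 0.103, and other pairs with −0.214 to 0.09. A rule asking for over 0.1 in every same-numbered pair was met only narrowly, so a pairing is not established. Calls, p-values and standard errors are from the fit on age alone, which uses no pairing. The fit with the replicate number as a block is given as an alternative. The closest pair of libraries differed by far more than sampling noise (chi-square per degree of freedom 12.4), so no library was a copy of another.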

Additional observations from a re-analysis of the deposited data

How the results depend on the processing

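All 51 members kept their direction and side of the threshold with DESeq2, with DESeq2 size factors, without a filter and with the replicate number as a block, which called 6996 genes over the whole table against 6264 without it and changed no other call of a member. The number of cell-cycle members that fell was 20 or 21 under every alternative, and the median difference between cell-cycle and transcriptional members ran from −2.82 to −2.32 without each library in turn. The transcriptional counts were less stable: 2 fell with library totals alone, and of the 3 rises 0 were left with totals alone and 1 with upper quartile scaling, with the filter of over 5 CPM, with voom and at an adjusted p under 0.01, and 1 to 3 without each library. At an adjusted p under 0.01, 4135 genes were called. Members that changed sign, none of them called in either setting, were Fzr1 (−0.077), Ccnd2 (−0.11), Cdk10 (−0.21), Cdk5 (−0.01), Ccnk (−0.20), Ccnl1 (−0.36), Cdk12 (−0.36) and Cdk9 (−0.41) with library totals alone, Cdk9 with upper quartile scaling (−0.0091) and Cdk12 with voom (−0.0134). Without each library in turn log2 fold changes ran from −0.0627 to 0.87 for Fzr1, −0.35 to 0.21 for Ccne2, −0.18 to 0.14 for Ccnj, −0.23 to 0.0169 for Ccny, −0.0833 to 0.22 for Cdk9, −0.25 to 0.10 for Ccnh, −0.17 to 0.13 for Cdk7, −0.29 to 0.0552 for Cdk16, −0.0584 to 0.31 for Ccnl1 and −0.24 to 0.43 for Cdk12. The sign changes under totals alone follow the shift of the median of all genes; the cause of the others was not tested. Depth limits the members with 6 to 24 reads at P14 (Cks2, Ccnb1 and Cdc25c). The counting intervals given for their folds cover counting error only and leave out the spread between pools.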
